A study of Mus musculus with 59 samples.

Results

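Collagens are the main structural proteins of the extracellular matrix, and their genes were followed here in mouse embryonic stem cells (ESCs) with and without Zcchc8. A gene was taken as a collagen gene if its symbol had the form Col, a number, a and a number, which gave 43 of the 23974 genes in the table. They were sorted by the kind of structure their proteins build, into 11 fibrillar, 7 basement membrane, 6 beaded filament and 9 FACIT collagens (collagens that sit on the surface of fibrils) and 10 others. The cells came from blastocysts of the BDF1 strain and were grown in serum with LIF and the inhibitors CHIR99021 and PD0325901, in both genotypes. They were either wild type (control) or Zcchc8 KO, and all 12 libraries came from an experiment in which Actinomycin D, which blocks transcription, was given at 5 µg/ml for 0, 4 or 8 h. Each of the 6 groups held 2 replicates, and the other samples of the 59 in the series were not analysed here. Nothing in the labels says how the 2 replicates of a group were grown or how many KO clones they stand for. A p-value here is therefore set against library-to-library spread alone, part or all of which can be technical.

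Collagen chains fold into triple helices in the endoplasmic reticulum after hydroxylation of their prolines and lysines. After secretion the ends of fibrillar procollagens are cut off, the molecules line up into fibrils, and lysyl oxidases cross-link them. Types I, III and V are the typical fibrillar collagens of connective tissue and of fibroblasts, and type IV forms the network of basement membranes. Zcchc8 is a scaffold of the nuclear exosome targeting complex, which passes nuclear RNA to the exosome for degradation.

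The 150 bases upstream of the annotated start of Col1a2, Col3a1 and Col5a1 are shown because these abundant members were all higher in KO when the times were averaged, as described below. They are from RefSeq (GRCm38.p6), on the plus strand, at chr6:4505468-4505617, chr1:45311388-45311537 and chr2:27886275-27886424. Capitals mark CCAAT and TATAAA, searched on both strands.
Col1a2: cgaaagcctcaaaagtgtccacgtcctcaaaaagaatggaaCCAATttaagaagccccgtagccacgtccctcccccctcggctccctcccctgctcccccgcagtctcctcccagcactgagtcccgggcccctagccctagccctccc
Col3a1: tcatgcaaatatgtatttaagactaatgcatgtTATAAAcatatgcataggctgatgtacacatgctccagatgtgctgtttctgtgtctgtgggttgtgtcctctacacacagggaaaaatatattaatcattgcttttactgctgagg
Col5a1: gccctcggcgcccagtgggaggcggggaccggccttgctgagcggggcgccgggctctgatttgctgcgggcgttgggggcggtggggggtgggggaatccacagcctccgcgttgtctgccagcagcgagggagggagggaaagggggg
CCAAT began at position −109 from the start in Col1a2, and TATAAA at −117 in Col3a1. Neither was found in this stretch of Col5a1. Of the 13 tested collagens with a promoter entry, 3 held CCAAT and 2 held TATAAA, against 24.5% and 7.57% of 32851 mouse promoter stretches of the same length. GGGCGG, also searched on either strand, was found in 8 of the 13 and in 28.6% of all stretches. A collagen with several stretches was counted if any of them held the motif, whereas the shares of all are per stretch. Col1a1, Col5a2, Col12a1 and Col9a3 had no promoter entry.

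All levels below are the authors' normalised read counts. The libraries held 465324 to 1364523 counted reads, so a single read stood for 0.452 to 3.23 normalised units. Zcchc8 was at 59.3 and 77.5 in the control libraries and at 25.3 and 5.29 in the KO libraries at 0 h, without overlap. At 8 h it was at 7.57 and 11.3 in control and at 9.56 and 3.78 in KO, where the genotypes overlapped. Of 18 pluripotency markers 14 were tested, with Sox2 at 872 ± 370 in control and 859.9 ± 10.8 in KO at 0 h (SD, n = 2) and Pou5f1 at 239.8 ± 76.5 and 280.5 ± 32.2. Esrrb was listed at 0 in every library. A mean of at least 10, needed for a test, was reached by 34.3% of genes with 1 transcript in the table and by 8.47% of those with several, so a low value of a gene with several transcripts is uncertain.

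The fibrillar collagens made up most of the collagen signal, and no basement membrane collagen reached the level needed for a test. Of the 43 genes 17 had a mean of at least 10 over the 12 libraries and were tested among 6952 genes. They comprised 7 fibrillar (Col1a1, Col1a2, Col3a1, Col5a1, Col5a2, Col11a1 and Col27a1), 2 beaded filament (Col6a1 and Col6a2), 4 FACIT (Col12a1, Col16a1, Col9a2 and Col9a3) and 4 other collagens (Col7a1, Col8a1, Col10a1 and Col23a1). All 17 had 1 transcript in the table, and none of the 8 collagens with several transcripts was tested. Just inside the limit were Col23a1 with a mean of 15.2 and Col27a1 with 12.1, and just outside was Col14a1, a FACIT collagen, with 7.45. Fibrillar collagens received 154092 reads over the 12 libraries, beaded filament collagens 5929, FACIT collagens 15731, the others 3485 and basement membrane collagens 116.

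Among the basement membrane collagens the highest mean was 3.72, for Col18a1, whose protein carries the endostatin fragment. Col4a3, Col4a4 and Col4a6, chains of specialised type IV networks, had means of 2.06, 1.33 and 1.74. Col15a1 and Col4a5 had means of 0.884 and 0.210. Col18a1 and Col4a5 each have 2 transcripts in the table, so their low values are uncertain. Col4a1, which encodes a chain of the ubiquitous type IV network, was listed at 0 in all 12 libraries although it has 1 transcript in the table, as were 29.7% of the 19086 genes with 1 transcript. In GENCODE M21 it overlaps the coding gene Col4a2 on the opposite strand, so its value is uncertain where counting did not use strand. Col4a2 itself was not analysed here, and the levels of the class do not include it. A count of 0 allows up to 3 reads, worth 1.36 to 9.69 normalised units depending on the library, and this limit covers counting error only. The 4 other collagens at 0 in every library were Col5a3, Col24a1, Col25a1 and Col9a1, where Col25a1 and Col9a1 have several transcripts. Summed over the class, basement membrane collagens were at 1.32 to 22.6 in the control libraries and 5.04 to 23.6 in the KO libraries, from 1 to 31 reads. The 31 reads were in control 8 h replicate 2, where 30 were of Col18a1. No test was run on this sum. At 4 h it was 1.46 and 2.32 in control (2 and 3 reads) and 5.61 and 13.6 in KO (10 and 14 reads). At 0 and 8 h the genotypes overlapped.

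Per kilobase of transcript, Col1a1 had the highest mean level of the 43 collagens, at 1054 units per kb. Col1a2 followed at 297, Col5a1 at 218, Col5a2 at 124, Col3a1 at 104 and Col12a1 at 85.8 units per kb. Next came Col6a2 and Col6a1 at 56.1 and 51.4 and Col8a1 at 29.6 units per kb, while the other tested members were between 1.58 (Col27a1) and 13.3 (Col16a1). Neighbours in this order were not all distinct, since Col6a2 was above Col6a1 in some libraries and below it in others, with a ratio of 0.802 to 1.43 per unit length. The ratio of Col1a2 to Col1a1 per unit length was 0.262 to 0.310 over the 12 libraries.

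**Figure D1:**
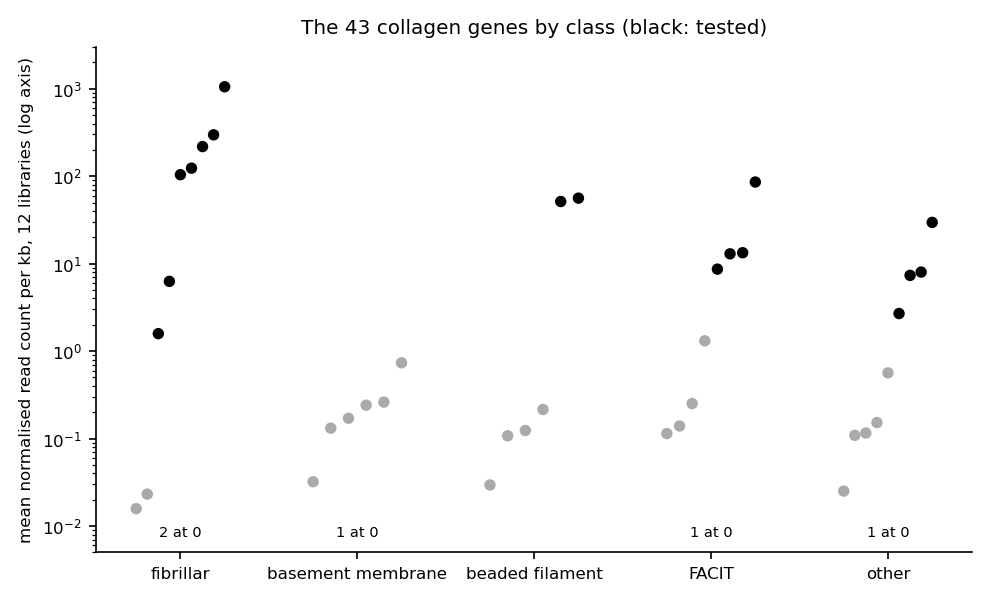
Mean level of each collagen gene over the 12 libraries, in normalised read counts per kilobase of transcript on a log axis, by class, with tested genes in black and untested genes in grey. Fibrillar collagens reached 1054 units per kb, whereas the highest basement membrane collagen was at 0.735, and genes at 0 in every library are given as a number because a log axis cannot show them.

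Col1a1, the major chain of type I collagen, was at 3065 and 5123 in control at 0 h, 4579.6 and 5357 at 4 h and 4056 and 5082 at 8 h. In KO it was at 9415 and 7058, 9051 and 9693, and 7215 and 5285 at the same times. KO libraries were above control libraries at each time, and only the lower KO library at 8 h fell within the control range over all times. Col1a2, the second chain of type I collagen, was at 857 and 1408, 1129 and 1316, and 1032 and 1257 in control and at 2513 and 1835, 2277 and 2371, and 1826 and 1251 in KO. Its groups overlapped at 8 h only. Col3a1, the chain of type III collagen, which mixes with type I in soft tissues, was at 320.0 and 485, 421 and 534, and 381 and 494 in control and at 906 and 644, 725 and 879.6, and 588 and 569 in KO. All 6 KO libraries were above all 6 control libraries for Col3a1, as for 2.53% of all tested genes. The same share stands beside each collagen described below as free of overlap over all times. These levels are on the deposited scale, where all genes shifted with genotype, as given below.

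Col5a1 and Col5a2 encode chains of type V collagen, which starts the assembly of type I fibrils. Col5a1 was at 925 and 1609, 1326 and 1519, and 1063 and 1454 in control and at 2828 and 2172, 2516 and 2696, and 1940.4 and 1966 in KO. Col5a2 was at 456 and 462, 486 and 718, and 484 and 582 in control and at 1209 and 1051, 1136 and 1369, and 905 and 963 in KO. Neither gene overlapped between the genotypes in any library. Col11a1, a chain of type XI collagen of cartilage fibrils, was at 15.8 and 19.4, 43.7 and 52.5, and 50.3 and 47.0 in control and at 65.7 and 54.7, 69.5 and 72.7, and 51.0 and 35.3 in KO. Its control libraries at 0 h were the lowest of the 12, and at 8 h the genotypes overlapped. Col27a1, a fibrillar collagen of cartilage, rested on few reads, with values of 0 and 3.23 (0 and 1 read), 2.91 and 13.1, and 2.16 and 20.8 in control and 30.3 and 17.6, 11.8 and 6.78, and 13.4 and 22.7 in KO.

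Col6a1 and Col6a2 encode chains of type VI collagen, which forms beaded filaments around cells. Col6a1 was at 83.0 and 149, 135 and 197, and 116 and 149.98 in control and at 322 and 222, 311 and 312, and 272 and 259 in KO. Col6a2 was at 115 and 187, 175 and 152, and 119 and 156 in control and at 350.3 and 279, 309.97 and 317, and 232 and 268 in KO. Every KO library was above every control library for both. Col12a1, a FACIT collagen of fibrils under tension, was at 417 and 769, 725 and 955, and 666 and 844 in control and at 1489 and 1077, 1439 and 1507, and 1036 and 922 in KO, with overlap only between control at 4 h and KO at 8 h. Col16a1, another FACIT collagen, was at 22.4 and 38.8, 36.4 and 51.7, and 44.3 and 52.9 in control and at 113 and 116, 101 and 97.8, and 93.7 and 65.5 in KO. Its KO libraries were all above its control libraries.

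Of the remaining collagens, Col8a1, a short-chain collagen of vessel walls and the cornea, was at 52.7 and 109.8, 96.8 and 116, and 104 and 120.2 in control and at 281 and 182, 218 and 239, and 163 and 135 in KO. Col7a1, the anchoring fibril collagen under epithelia, was at 40.8 and 35.5, 29.8 and 34.0, and 33.5 and 52.9 in control and at 163 and 65.2, 95.3 and 110.4, and 73.3 and 76.8 in KO. Both genes were higher in each KO library than in any control library. Col9a2 and Col9a3, chains of the FACIT collagen of cartilage, ranged from 16.8 to 75.8 and from 6.46 to 44.1, with overlapping genotypes. Col10a1, the collagen of hypertrophic cartilage, ranged from 8.42 to 47.4, and its genotypes overlapped as well. The exons of Col9a3 and Col10a1 overlap coding exons of Tcfl5 and Nt5dc1 on the opposite strand in the GENCODE M21 annotation, and since it is not stated whether counting used strand, their reads are uncertain. Col5a1 overlaps exons of the noncoding transcripts 2810430I11Rik and Gm13372 in the same way. In bulk RNA, fewer cells of a type and less RNA per cell cannot be told apart.

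**Figure D2:**
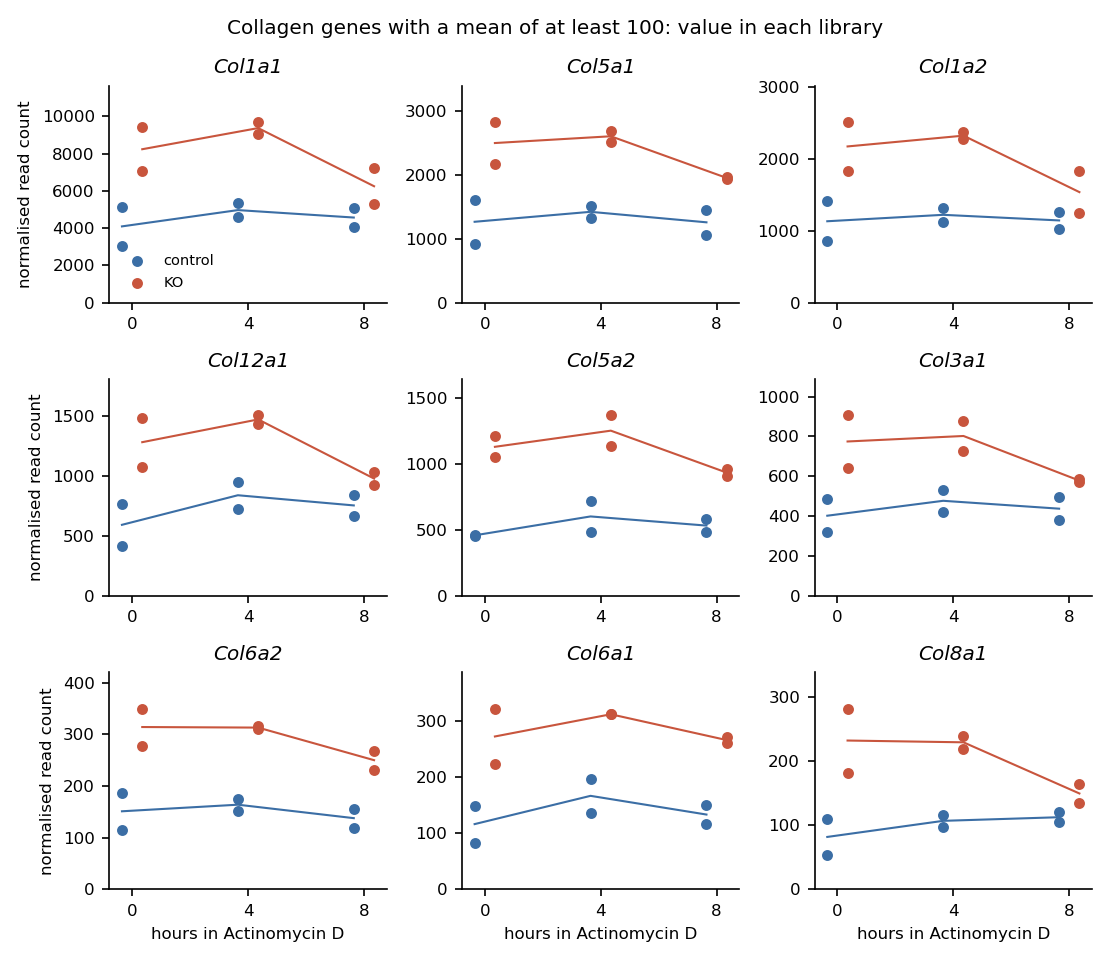
Normalised read count in each library of the 9 collagens with a mean of at least 100, against hours in Actinomycin D, with control in blue and KO in red, points for libraries and lines through the means of 2 libraries. For Col5a1, Col5a2, Col3a1, Col6a2, Col6a1 and Col8a1 every KO point lies above every control point, as for 2.53% of all tested genes on this deposited scale.

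Averaged over 0, 4 and 8 h, 12 of the 17 tested collagens were called higher in KO and 0 lower (limma on log2(value + 1), adjusted p below 0.05), where 19% of the 6952 tested genes were called higher and 0.259% lower. The 12 were 6 of the 7 fibrillar members (all but Col11a1), Col6a1 and Col6a2, the FACIT members Col12a1 and Col16a1, and Col7a1 and Col8a1. Col1a1 was higher by a log2 change of 0.80 (SE 0.20, adjusted p = 0.00482), which is 1.74-fold, and Col5a2 by 1.06 (SE 0.21, adjusted p = 0.000311), which is 2.09-fold. Col1a2 and Col3a1 were higher by 0.77 (SE 0.21, adjusted p = 0.00844) and 0.71 (SE 0.21, adjusted p = 0.0161), and Col5a1 by 0.85 (SE 0.21, adjusted p = 0.00335). The largest called change among members with a mean of at least 50 was that of Col7a1, at 1.30 (SE 0.26, adjusted p = 0.000500). For Col16a1 the log2 change was 1.26 and for Col6a1 and Col6a2 it was 1.06 and 0.96, with SEs of 0.25, 0.23 and 0.22. Col11a1 missed the threshold with 0.70 (SE 0.27, adjusted p = 0.0598), and Col9a2, Col9a3, Col10a1 and Col23a1 had log2 changes of −0.24, 0.48, −0.08 and 0.16.

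All genes shifted with genotype on the deposited scale, by a median log2 change of 0.45 averaged over times, against 0.80 for the tested collagens. After the libraries were rescaled by TMM, which sets the typical gene to about no change, the medians were 0.01 and 0.33, and 8 collagens were called higher against 5.42% of all genes, with 0 called lower against 3.19%. The 4 no longer called were Col1a2 (log2 change 0.30, adjusted p = 0.118), Col3a1 (0.24, adjusted p = 0.202), Col12a1 (0.32, adjusted p = 0.0666) and Col27a1 (1.28, adjusted p = 0.148). In both scalings Col1a1, Col5a1, Col5a2, Col6a1, Col6a2, Col7a1, Col8a1 and Col16a1 were called higher. Without KO 0 h replicate 1 also 8 members were called on the deposited scale, and the calls of Col12a1, Col1a2, Col27a1 and Col3a1 were lost. Col27a1 and Col3a1 were each lost on leaving out some of the other libraries, with adjusted p-values up to 0.165 for Col27a1 (without control 8 h replicate 1) and up to 0.0890 for Col3a1 (without KO 0 h replicate 1). For 8 collagens all 6 KO libraries were above all 6 control libraries, as for 2.53% of all tested genes.

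At 0 h alone 5 collagens were called higher in KO, against 4.23% of all tested genes, and 0 were called lower, against 0.0719%. These were Col11a1 (log2 change 1.72, SE 0.46, adjusted p = 0.0260), Col16a1 (1.92, SE 0.44, adjusted p = 0.00696), Col8a1 (1.56, SE 0.40, adjusted p = 0.0187), Col5a2 (1.30, SE 0.36, adjusted p = 0.0300) and Col27a1 (adjusted p = 0.0261), whose 1 control read gives no usable fold. The other 6 fibrillar members had log2 changes of 0.95 to 1.72, and 13 of the 17 collagens were higher at an unadjusted p below 0.05. How many of all tested genes were higher at that unadjusted p was not computed. After TMM scaling 3 were called, Col12a1, Col16a1 and Col8a1, against 1.35% of all genes, and 0 were called lower, against 0.388%. Fits with fewer libraries were run on the deposited scale, where the count was 5. This count was unstable against leaving out a library, with 0 called without KO 0 h replicate 1 or replicate 2, 2 without control 0 h replicate 1 and 12 without control 0 h replicate 2. It was 0 when only the 4 libraries at 0 h were fitted.

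At 4 h and at 8 h no collagen was called in either direction by limma fitted on all 12 libraries, against 0.748% and 4.88% of all genes called higher and 0% and 0.0144% called lower. At an unadjusted p below 0.05, 11 collagens were higher at 4 h and 3 at 8 h, and 0 were lower. The matching shares of all genes were not computed, so these counts do not set the collagens apart. Fitted on the 4 libraries of 1 time alone, limma called 7 higher at 4 h and 0 at 8 h. DESeq2 called 3 at 4 h and 0 at 8 h, and edgeR 0 at both times. For these fits, and for those without 1 library, the share of all genes called was not computed. Without control 0 h replicate 1 or replicate 2, limma called 4 and 5 at 4 h and 3 and 3 at 8 h. The median log2 change of the tested collagens was 1.09 at 0 h, 0.88 at 4 h and 0.44 at 8 h, beside 0.44, 0.29 and 0.63 for all tested genes. After TMM scaling the collagen medians were 0.65, 0.58 and −0.22, so that the direction at 8 h turned. Both KO libraries were above both control libraries for 13, 12 and 11 collagens at 0, 4 and 8 h, and for 37.3%, 37% and 55.3% of all genes.

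**Figure D3:**
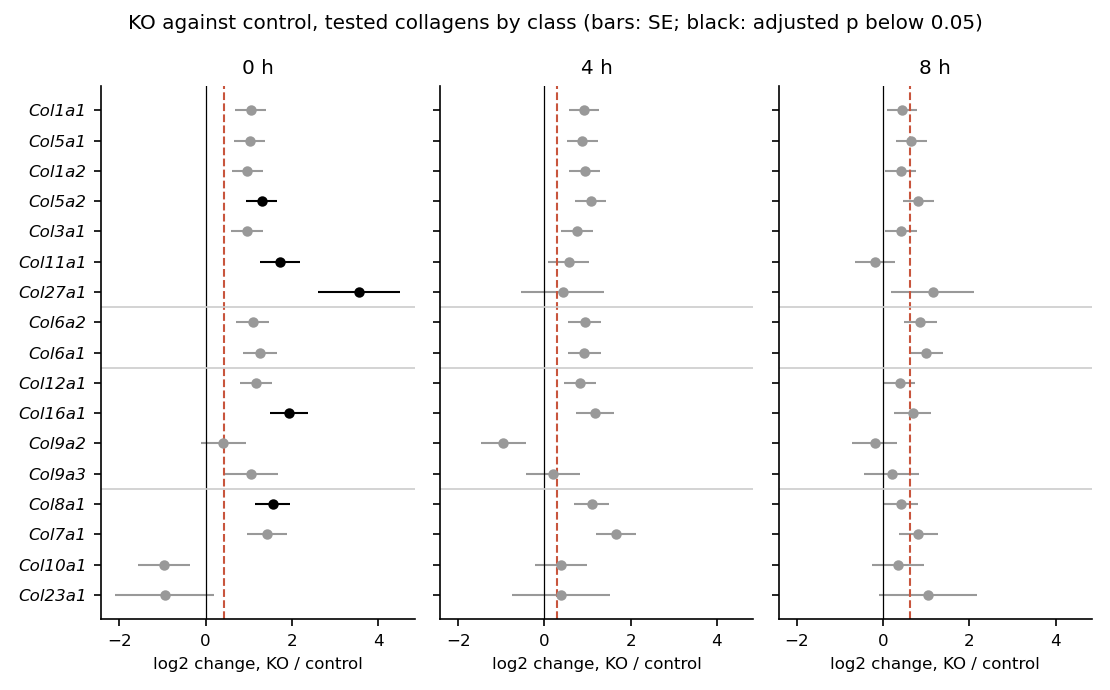
Log2 change between KO and control of the 17 tested collagens at 0, 4 and 8 h, with bars of 1 SE, calls in black, and grey lines between the fibrillar, beaded filament, FACIT and other classes. The red dashed lines mark the median of all tested genes, at 0.44, 0.29 and 0.63, and most collagens lie to its right at 0 and 4 h but around it at 8 h.

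Col1a1 took 44.2% to 49.8% of the summed collagen value in the 12 libraries and the fibrillar class 84.5% to 86.5%, without scaling for length. The ratio of Col1a2 to Col1a1 was 0.258 ± 0.015 in control and 0.252 ± 0.011 in KO (SD, n = 6), and that of Col3a1 to Col1a1 was 0.0969 ± 0.0046 and 0.0912 ± 0.0102. These ratios do not depend on the scaling of the libraries. Col5a2 to Col1a1 was 0.119 ± 0.021 in control and 0.142 ± 0.022 in KO, with overlapping ranges of 0.0902 to 0.149 and 0.125 to 0.182. Col11a1 to Col1a1 varied most in control, from 0.00378 to 0.0124, and stayed between 0.00667 and 0.00774 in KO.

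As a share of each library's summed value without the ribosomal RNA precursor Rn45s, the collagens held 0.886% ± 0.083 at 0 h, 1.45% ± 0.059 at 4 h and 2.32% ± 0.047 at 8 h in control (SD, n = 2). In KO the share was 1.40% ± 0.27, 2.32% ± 0.14 and 1.99% ± 0.57. With 2 libraries a group, these shares are given without a test. The control libraries did not overlap between times, while the lower KO library at 8 h, at 1.58%, was level with the higher KO library at 0 h, also at 1.58%.

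Over 8 h in Actinomycin D, 13 of the 17 tested collagens had a log2 change above 0 in control on the deposited scale, and 16 had one below 0 in KO. In control the median log2 change from 0 to 8 h was 0.20 for the tested collagens and −1.33 for all tested genes, and 53.5% of all genes were called lower against 1 collagen. In KO the medians were −0.40 and −1.15, and 40.5% of all genes were called lower against 1 collagen, while 0.0575% of all genes and 0 collagens were called higher. Col1a1 changed by 0.20 (SE 0.35, adjusted p = 0.636) in control and by −0.40 (SE 0.35, adjusted p = 0.339) in KO, which placed it above 94.5% and 85.6% of all tested genes. The other fibrillar members with a mean of at least 100 were between 0.03 (Col5a1) and 0.21 (Col5a2) in control and between −0.51 (Col1a2) and −0.27 (Col5a2) in KO. None of these passed the test, and several turned in sign when a library was left out.

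The 1 collagen called higher from 0 to 8 h in control was Col11a1, by 1.42 on the log2 scale (SE 0.46, adjusted p = 0.0104), where 0.503% of all genes were called higher. It had reached this level by 4 h, with a change of 1.40 (SE 0.46, adjusted p = 0.0386), where 0.489% of all genes were called higher. In KO its log2 change from 0 to 8 h was −0.49 (SE 0.46, adjusted p = 0.372). The control change was no longer called without control 8 h replicate 1 (1.37, adjusted p = 0.0777) or when only the control libraries at 0 and 8 h were fitted, and it rested on 12 and 6 reads at 0 h. The 1 collagen called lower in both genotypes was Col23a1, a transmembrane collagen. It fell from 29.0 and 90.4 at 0 h to 0 and 1.54 at 4 h and 0 and 0.903 at 8 h in control (adjusted p = 0.000296 for 8 h), the last from 0 and 2 reads. In KO it fell from 20.2 and 33.5 to 3.36 and 0 and then to 2.55 and 1.26 (adjusted p = 0.0224 for 8 h). At 4 h Col23a1 was already called lower in both genotypes, as were 11.8% of all genes in control and 14.4% in KO, and no collagen was called higher in KO, against 0.0288% of all genes. The KO call at 8 h was lost after TMM scaling, and without any 1 of the 4 KO libraries at 0 and 8 h.

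After TMM scaling the changes are relative to the typical gene, whose median was then 0.02 in control and −0.01 in KO. On that scale 13 collagens were called higher and 1 lower at 8 h in control, against 10.6% and 11.2% of all genes. The 13 were all 7 tested fibrillar members, Col6a1, Col6a2, Col12a1, Col16a1, Col7a1 and Col8a1. In KO 8 were called higher and 0 lower, against 5.35% and 5.7%, and these were Col1a1, Col1a2, Col3a1, Col5a1, Col5a2, Col6a1, Col6a2 and Col12a1. The median of the tested collagens was 1.61 in control and 0.74 in KO. Col1a1, for example, was higher by 1.61 in control (adjusted p = 3.69e-06) and by 0.77 in KO (adjusted p = 0.00756). The values say how much of each RNA was left relative to other RNAs and not how much was left per cell.

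**Figure D4:**
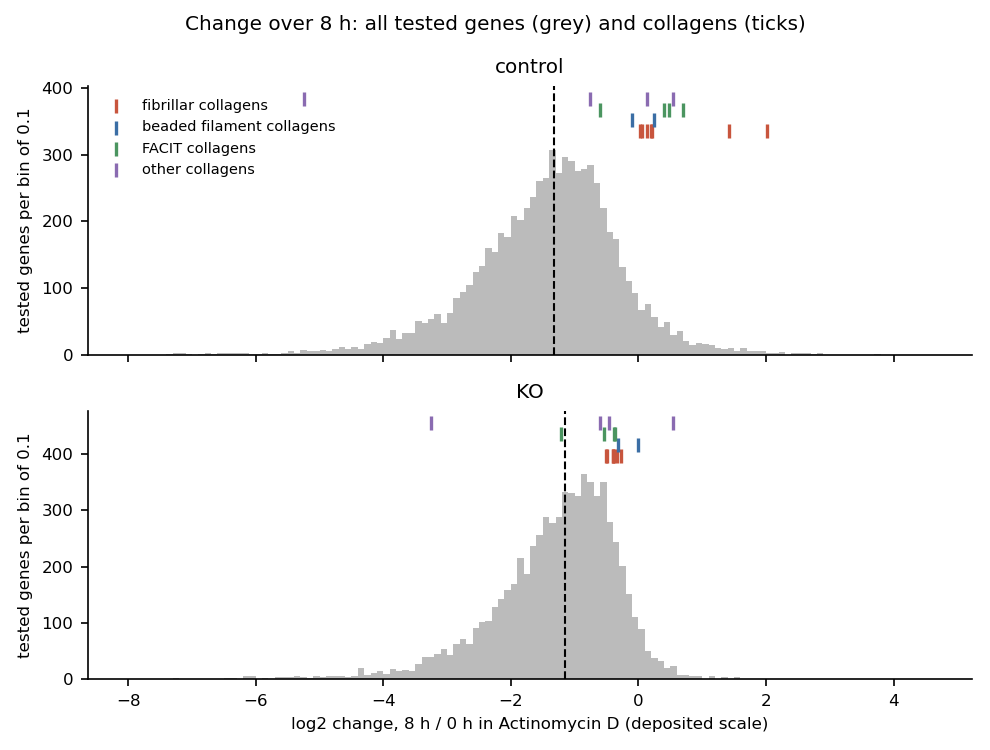
Log2 change from 0 to 8 h in Actinomycin D on the deposited scale, as a histogram of all 6952 tested genes in bins of 0.1 (grey, median dashed) with the 17 tested collagens as ticks coloured by class. All collagens but Col23a1 in control, and all but Col23a1 and Col9a2 in KO, lie to the right of the medians of −1.33 and −1.15.

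The change over 8 h was lower in KO than in control for 15 of the 17 tested collagens, with a median difference of −0.60 beside 0.18 for all genes, but none of these differences passed the test. Called differences were 0 in either direction by limma, edgeR and DESeq2, against 0.0144% of all genes higher and 0% lower by limma. At an unadjusted p below 0.05, 2 collagens had a lower change in KO, Col11a1 (−1.91, SE 0.66, adjusted p = 0.648) and Col8a1 (−1.15, SE 0.57, adjusted p = 0.812). The share of all genes at this unadjusted p was not computed.

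Genes whose products work on collagen were fixed as lists with earlier results of these data known. Of the 9 tested genes for procollagen cleavage and cross-linking 5 were called higher in KO averaged over times, Pcolce, Lox, Loxl1, Loxl2 and Loxl3, and 0 lower, with a median log2 change of 0.79 beside 0.45 for all genes and with 19% of all tested genes called higher. Pcolce, which speeds the removal of the procollagen end, was at 160.3 ± 54.7 in control and 337 ± 87 in KO (SD, n = 6), a log2 change of 1.10 (SE 0.22, adjusted p = 0.000496). Lox, a lysyl oxidase, was at 38.7 ± 9.1 and 85.4 ± 14.5, a change of 1.14 (SE 0.26, adjusted p = 0.00164). Its KO libraries were all above the control libraries, as for 2.53% of all tested genes. Loxl3 and Loxl1, which belong to the same enzyme family, changed by 0.95 and 0.80. After TMM scaling 3 members of the list were called higher, against 5.42% of all genes.

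Of 8 tested folding and modification genes 2 were called higher, a share near the 19% of all genes. They were P4ha3, a prolyl 4-hydroxylase subunit (1.07, SE 0.30, adjusted p = 0.0111), and Leprel2, a prolyl 3-hydroxylase (1.00, SE 0.30, adjusted p = 0.0149), and 0 were called higher after TMM scaling. Glt25d1, which adds sugar to hydroxylysine, and the lysyl hydroxylase Plod3 had changes of 0.59 and 0.60 with adjusted p-values of 0.0541 and 0.0556. The median of the list was 0.54, beside 0.45 for all genes.

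Receptors for collagen were called higher in 3 of 4 tested cases, against 19% of all genes on the deposited scale and 5.42% after TMM scaling, where again 3 were called. Ddr2, a receptor kinase for fibrillar collagen, was at 20.5 ± 6.5 in control and 64.1 ± 21.6 in KO, with a log2 change of 1.58 (SE 0.30, adjusted p = 0.000186). Itgb1, the beta chain of the collagen-binding integrins, changed by 1.05 (SE 0.22, adjusted p = 0.000562) and the endocytic collagen receptor Mrc2 by 1.03 (SE 0.24, adjusted p = 0.00233). The integrin chain Itga11 had a change of 0.80 with an adjusted p of 0.0868.

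Partners in the interstitial matrix were called higher in 5 of 9 tested cases, against 19% of all genes, and in 3 after TMM scaling, against 5.42%. Bgn, a proteoglycan that binds fibrils, changed by 1.21 (SE 0.23, adjusted p = 0.000183), and the matricellular genes Thbs2 and Tnc by 1.11 and 0.99. Fbln5, of elastic fibres, changed by 1.19 (SE 0.30, adjusted p = 0.00439). Among the laminins and other partners in basement membranes 2 of 13 tested members were called higher, Lamb1 (1.02, SE 0.23, adjusted p = 0.00126) and Lama3 (1.10, SE 0.35, adjusted p = 0.0214), with a list median of 0.28 beside 0.45 for all genes. This count is near the 19% of all genes called higher. After TMM scaling 1 was called higher and 3 lower, against 5.42% and 3.19% of all genes. Hspg2, the basement membrane proteoglycan perlecan, had a change of 0.54 (adjusted p = 0.0700), and the laminin chain Lama1 one of 0.82 (adjusted p = 0.0779). Hspg2 itself was at 1229 ± 356 in control and 1743 ± 313 in KO (SD, n = 6), whereas each type IV gene in the table had a mean of at most 2.06. These type IV genes do not include Col4a2, and the low values of Col4a1 and Col4a5 are uncertain, as described above.

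Fibroblast markers other than collagens were also higher in KO. Of 15 markers 8 were tested and 7 were called higher in KO averaged over times, against 19% of all genes, with a median log2 change of 1.13 beside 0.45. After TMM scaling 5 were called higher, against 5.42% of all genes. Cdh11, a mesenchymal cadherin, changed by 1.38 (SE 0.24, adjusted p = 5.81e-05) and Thy1, a surface marker of fibroblasts, by 1.30 (SE 0.23, adjusted p = 8.9e-05). The smooth muscle actin gene Acta2 and the intermediate filament gene Vim changed by 1.08 and 1.01. The summed level of the 15 markers was 1112 to 2126 in the control libraries and 2513 to 4227 in the KO libraries. Among the untested markers Pdgfrb and Postn were listed at 0, as genes with several transcripts. Pdgfra and Prrx1, also with several transcripts, had means of 1.03 and 3.04. Snai2, Fap and Tcf21 have 1 transcript each and were near 0 as well, with means of 2.80, 1.15 and 0.053. The part of other cells in the collagen result was not tested.

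Markers of primitive and parietal endoderm, the embryonic cells that lay down type IV collagen, were mostly at or near 0. Of 10 markers 5 were listed at 0 (Gata4, Sox17, Dab2, Foxa2 and Hnf4a) and 1 was tested, Thbd. It was called higher in KO by limma (1.36, SE 0.38, adjusted p = 0.0109), as were 19% of all genes. After TMM scaling it was not called (0.90, adjusted p = 0.107). Sox17, Dab2 and Foxa2 have several transcripts, so their 0 is uncertain. Gata4 and Hnf4a have 1, but 29.7% of all genes with 1 transcript were also at 0 in every library. The summed level of this list was 3.95 to 19.4 in the control libraries and 27.7 to 64 in the KO libraries. Most of this sum was Thbd, with means of 12.8 in control and 33.5 in KO, so it says little about the other markers. Pluripotency markers were called higher in 3 of 14 tested cases (Dppa3, Fgf4 and Utf1), near the 19% of all genes, and in 0 after TMM scaling, with a median of 0.37 beside 0.45 for all genes. Over 8 h in Actinomycin D 12 of the 14 were called lower in control and 11 in KO, against 53.5% and 40.5% of all genes. After TMM scaling 8 were called lower in each genotype, against 11.2% of all genes in control and 5.7% in KO. Called higher on that scale were 2 in control and 0 in KO, against 10.6% and 5.35% of all genes. On the deposited scale the pluripotency sum went from 4711 ± 1739 to 1067 ± 205 in control and from 5128 ± 389 to 1397 ± 176 in KO (SD, n = 2). The collagen sum went from 8572 ± 2893 to 9313 ± 1550 in control and from 17423 ± 3409 to 13219 ± 1804 in KO.

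**Figure D5:**
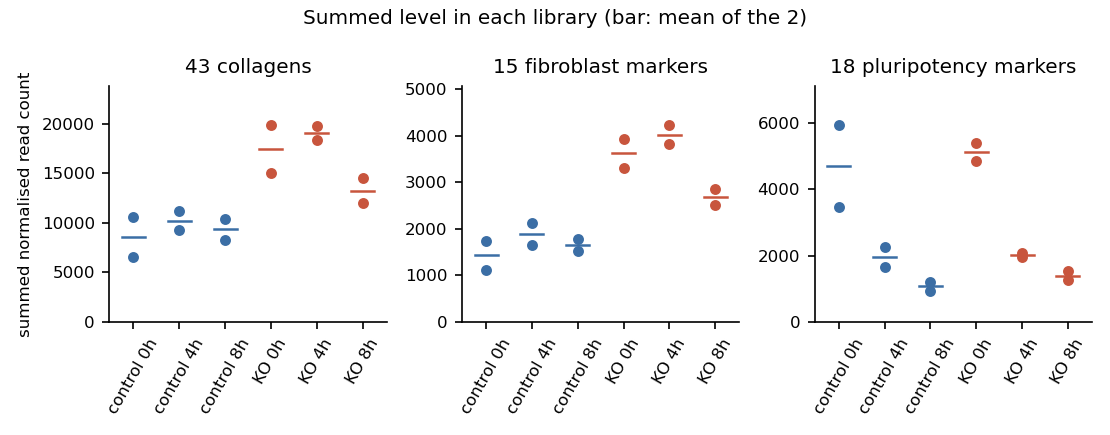
Summed normalised read count of the 43 collagens, of 15 fibroblast markers other than collagens and of 18 pluripotency markers in each library, with control in blue, KO in red and a bar at the mean of 2 libraries. On the deposited scale, collagen and fibroblast marker sums are higher in every KO library than in any control library. Collagen sums are 6526 to 11130 in control and 11943 to 19833 in KO. All tested genes also shifted on this scale, by a median log2 change of 0.45 averaged over times. As a share of library value without Rn45s, mean collagen was higher in KO at 0 and 4 h. At 8 h this share was 2.32% in control and 1.99% in KO. Pluripotency sums are lower at 4 and 8 h than at 0 h in both genotypes.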

How the data were processed

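Total RNA of 12 libraries (control and Zcchc8 KO, 0, 4 and 8 h of Actinomycin D, 2 each) was depleted of ribosomal RNA and sequenced by the authors. The deposited signal is a normalised read count per RefSeq transcript, with 1 factor per library, and whole reads were recovered from it for all values within 0.001 reads. Per the submitters' processing notes, TopHat2 2.1.1, HTSeq 0.6.0, DESeq2 and build mm9 were named, without settings or roles. The origin of the factors and the strand setting are not stated. The labels mention an ERCC spike-in, but 0 spike-in rows were in the table used, so levels were not rescaled per cell and no half-lives were computed.

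Of 33896 rows 978 repeats were dropped, and the 32918 transcripts were summed to 23974 symbols. Genes with a mean of at least 10 (6952) were tested with limma 3.58.1 (R 4.3.3, trend and robust) on log2(value + 1), with 6 group means and 6 residual degrees of freedom. Adding 1 understates the fold of low genes. Tests were two-sided, p-values were adjusted by Benjamini-Hochberg over all 6952 genes, and a gene was called at an adjusted p below 0.05. The collagens, the marker and pathway lists and the tests were chosen with earlier results of these data known. Named were all tested collagens and, from each list, up to 4 genes by the smallest p in the averaged genotype comparison, with a few markers given as listed at 0 or for identity. Loxl2, Hspg2 as a level, the markers at 0 and the other untested fibroblast markers were named after their values were seen. On simulated data for 6952 genes, 11.0% of 2-fold and 69.7% of 4-fold changes were recovered at 0 h, and 46.3% and 97.7% averaged over times. In the same simulations a mean of 13 unchanged genes were falsely called at 0 h and 4.67 averaged over times. Alternatives were TMM scaling, edgeR 4.0.16, DESeq2 1.42.0 on the recovered reads, other pseudocounts and filters, other handling of transcripts, the compared libraries alone, a replicate block and leaving out each library. The sequences around the start codons are not reported here.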

Additional observations from a re-analysis of the deposited data

Results flagged for a closer look

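For 3 collagens, on the deposited scale, both control libraries at 8 h in Actinomycin D were above both at 0 h. In KO both libraries at 8 h were below both at 0 h. The share of all tested genes with this pattern was not computed. Col5a2 had a log2 change of 0.21 in control and −0.27 in KO, and the difference of −0.48 (SE 0.51) did not pass the test (limma, adjusted p = 0.937). Col16a1 had a log2 change of 0.70 in control and −0.54 in KO, and the difference of −1.24 (SE 0.62) did not pass either (limma, adjusted p = 0.812). Col11a1 had a log2 change of 1.42 in control and −0.49 in KO, with a difference of −1.91 (SE 0.66) that did not pass (limma, adjusted p = 0.648). The opposite directions were not kept after TMM scaling, where all 3 changes were above 0 in both genotypes. In control and KO they were then 1.62 and 0.90 for Col5a2, 2.08 and 0.62 for Col16a1, and 2.79 and 0.66 for Col11a1.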

How the results depend on the processing

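In the genotype comparison averaged over times, the count of 12 collagens called higher became 7 with edgeR and TMM, and it ran from 8 to 13 when a library was left out. It has no value for the compared libraries alone, since it already uses all 12. Shares of all tested genes were computed only for the main fit and for TMM scaling, not for the other alternatives. At 0 h, the 5 called higher became 3 with TMM scaling, 3 with edgeR on the authors' factors, 2 with edgeR and TMM, 8 with a pseudocount of 5 and 0 with the compared libraries alone, and ran from 0 to 12 when a library was left out. At 4 h the count of 0 became 3 with DESeq2, 1 with a minimum mean of 50 and 7 with the compared libraries alone, and ran from 0 to 5 when a library was left out, and at 8 h from 0 to 3. From 0 to 8 h in control, the 1 called higher became 13 with TMM scaling, with edgeR and TMM and with DESeq2, 2 with edgeR on the authors' factors and 0 with a minimum mean of 50 or the compared libraries alone, and ran from 1 to 3 when a library was left out. The 1 called lower became 0 with a minimum mean of 50. In KO, the 0 called higher became 8 with TMM scaling, with edgeR and TMM and with DESeq2, and the 1 called lower became 0 with these, with a pseudocount of 0.5 and with a minimum mean of 50, and ran from 0 to 2 when a library was left out.

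Gene by gene, the shared replicate numbers showed little sign of pairing: deviations from the group means correlated between −0.070 and 0.117 over 15 pairs of groups. This check cannot exclude pairing, since a correlation over genes does not see a shift common to all genes of a library. With the replicate block, 12 collagens were called higher at 0 h, 1 at 4 h, 1 at 8 h and 13 averaged over times, and 2 lower over 8 h in KO.

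Over single collagens, 1007 of 1178 alternative values kept direction and call, 66 lost a call, 55 gained one and 50 turned in direction. All those that turned concern the change over 8 h, where rescaling moves the median of all genes from −1.33 to 0.02 in control and from −1.15 to −0.01 in KO. In KO, TMM scaling, edgeR with TMM and DESeq2 gave 0.77, 0.79 and 0.77 for Col1a1, 0.83, 0.82 and 0.80 for Col5a1, 0.67, 0.70 and 0.67 for Col1a2, 0.80, 0.80 and 0.77 for Col12a1, and 0.90, 0.90 and 0.88 for Col5a2. They gave 0.77, 0.76 and 0.74 for Col3a1, 0.85, 0.84 and 0.82 for Col6a2, 1.16, 1.15 and 1.12 for Col6a1, 0.56, 0.56 and 0.53 for Col8a1, 0.62, 0.68 and 0.65 for Col16a1, and 0.66, 0.73 and 0.71 for Col11a1. In control they gave 1.30, 1.30 and 1.27 for Col6a2, and edgeR on the authors' factors gave −0.0055 for Col5a1. Leaving out a library gave control changes of −0.17 to 0.57 for Col1a1, −0.37 to 0.43 for Col5a1, −0.31 to 0.41 for Col1a2, −0.036 to 0.84 for Col12a1, −0.16 to 0.44 for Col3a1, −0.45 to 0.25 for Col6a2 and −0.17 to 0.66 for Col6a1, and KO changes of −0.28 to 0.26 for Col6a1. The cause of the other shifts was not tested. Depth limits the low members most: Col27a1 and Col23a1 rested on 0 to 46 reads per library.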
